A study of Mus musculus with 12 samples.

Results

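The genes described are ligands of the epidermal growth factor (EGF) receptor, receptors of its family, the enzyme that sheds the ligands and an inhibitor of the receptors, measured in whole mouse lung after ventilator-induced lung injury (VILI). They were chosen by name, with earlier results of these data known. Every probe set that the platform annotation gives to 1 of the 10 names alone was taken: Hbegf, Areg, Ereg, Btc and Tgfa among the ligands, Egfr, Erbb2 and Erbb3 among the receptors, the sheddase Adam17 and the inhibitor Lrig1. Of the 18193 genes with a probe set of their own in the annotation, 9 are members, with 24 probe sets. Areg, the gene of amphiregulin, has no probe set under its name in the annotation used here and is not analysed here. The 12 samples are lungs of mice aged 8 to 12 weeks, with 1 array each and 3 mice per group. The groups are GADD45-/- mice given VILI, wild type mice given VILI, GADD45-/- mice labelled SB and wild type mice labelled SB. Ventilation was at 30 ml/kg tidal volume and 65 breaths per minute for 4 hours, and the labels do not spell out SB, whose wild type mice the design calls the control. Other labels of the knockout VILI samples write GADD-/-, the series title names GADD45a, and the sources used here give neither strain, sex nor the cells in which the gene was deleted.

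EGF family ligands are made as proteins anchored in the cell membrane, and cutting by a metalloproteinase releases them so that they can reach receptors on the same or on neighbouring cells. Ligand binding pairs the receptor with another molecule of itself or with a relative, and the pair signals through the Ras-ERK and PI3K-Akt cascades. In lung epithelium this pathway is known for its part in the spreading, proliferation and repair of injured epithelial sheets, and mechanical stretch and wounding are known triggers of ligand shedding.

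The values were expression values that the authors had normalized, taken as log2 from their range. A probe set entered the test if its value exceeded the median of its array on 3 or more of the 12 arrays, and each gene was represented by its tested probe set with the highest mean. Of the 24 member probe sets, 15 passed that filter, and they covered 8 members. The single probe set of Ereg did not pass. Changes are differences of log2 group means, VILI minus SB or knockout minus wild type, and SE is the standard error from the fit. They were tested with limma's moderated test over all 10996 genes with Benjamini-Hochberg adjustment at a threshold of 0.05.

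Gadd45a, the targeted gene, lay between 4.58 and 6.15 on the 6 knockout arrays and between 8.62 and 10.33 on the 6 wild type arrays. The surfactant gene Sftpc and the club cell gene Scgb1a1 lay at 15.12 or above and 15.52 or above on every array, near the highest value of any probe set, 15.9. Replicate 3 of knockout VILI and replicate 3 of knockout SB stood apart with mean B cell marker levels of 9.84 and 9.16, against 5.04 to 6.97 on the other arrays. Neutrophil markers rose with VILI: of 6 tested, 6 rose averaged over genotypes, and their mean level was 9.99 to 11.40 in knockout VILI, 9.79 to 10.87 in wild type VILI, 7.25 to 7.83 in knockout SB and 6.60 to 7.41 in wild type SB. Of 6 endothelial markers, 4 fell, and their mean level was 10.67 to 11.15 in knockout VILI, 10.98 to 11.07 in wild type VILI, 11.31 to 11.63 in knockout SB and 11.45 to 11.61 in wild type SB. Mean levels of type II epithelial markers were 13.03 to 13.58 in knockout VILI, 13.40 to 13.57 in wild type VILI, 13.48 to 13.67 in knockout SB and 13.50 to 13.60 in wild type SB, and 1 of 5 fell. Of 4 ciliated cell markers 3 fell, and their mean level was 8.01 to 8.50 in knockout VILI, 8.06 to 8.19 in wild type VILI, 8.74 to 8.88 in knockout SB and 8.80 to 9.38 in wild type SB. Club cell markers fell in 3 of 4 cases, and type I epithelial markers and fibroblast and smooth muscle markers in 2 of 6 each. Macrophage and monocyte markers rose in 1 of 7 cases. Of 4 B cell and 4 heart muscle markers tested, 0 were called. All these counts are of the averaged VILI response, for which 8.42% of all genes rose and 9.39% fell. The part of these cell types in the changes below was not tested, and in whole lung a change in the number of cells of a type cannot be told apart from a change in RNA per cell.

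Hbegf rose after VILI, Egfr rose and Erbb2 fell when both genotypes were averaged, and the other members tested did not pass. These 3 of 8 members compare with 17.8% of all genes called for the averaged VILI response, 8.42% higher and 9.39% lower. In knockout lungs alone Hbegf was the 1 member of 8 that passed, against 4.47% of all genes, 2.76% higher and 1.7% lower. These shares move with single arrays, over 0.628% to 6.48% in knockout and 0.173% to 4.43% in wild type when 1 array is left out. In wild type lungs alone 0 of 8 passed by limma, against 2.64% of all genes, 1.36% higher and 1.28% lower. These counts take 1 probe set per gene. With the mean of each gene's kept probe sets, Lrig1 passed in wild type (-0.77, adjusted p = 0.0302). Egfr then did not pass in the average (0.63, adjusted p = 0.0660). The median change of the 8 members averaged over genotypes was -0.02, beside -0.03 over all genes tested. Arrays of knockout VILI and knockout SB did not overlap for 4 of the 8 members, against 23.6% of all genes, and arrays of wild type VILI and wild type SB did not overlap for 5 of 8, against 31.6%. Knockout and wild type arrays did not overlap for 1 of 8 members in VILI, Tgfa, against 14.8% of all genes, and for 3 of 8 in SB, Hbegf, Erbb3 and Lrig1, against 15.2%.

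**Figure D1:**
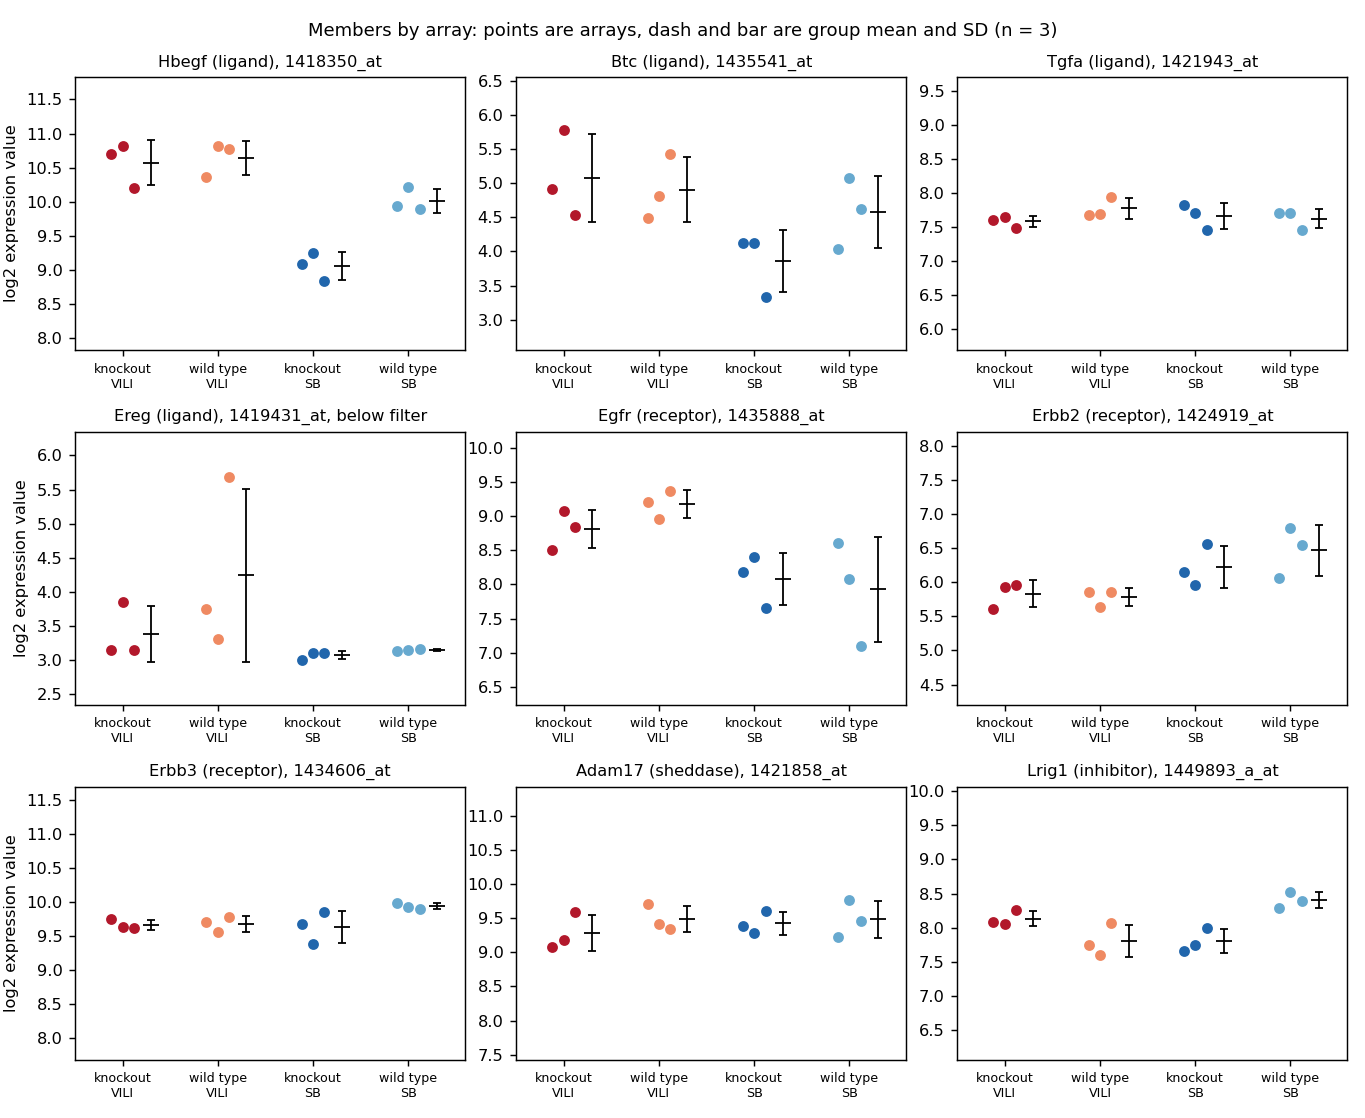
Log2 expression value (y axis) of the 9 members with a probe set, by group (x axis), with 1 point per array and the group mean ± SD (n = 3) beside the points. The Egfr VILI arrays lie at 8.51 to 9.37 and the SB arrays at 7.10 to 8.62, apart within each genotype and overlapping across genotypes. Ereg stays near 3 on the SB arrays and reaches 5.69 on 1 wild type VILI array.

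The ligand Hbegf, heparin-binding EGF-like growth factor, gave the clearest response. Its log2 expression value was 10.70, 10.81 and 10.21 in knockout VILI, against 9.08, 9.24 and 8.84 in knockout SB. In wild type it was 10.36, 10.81 and 10.77 after VILI, against 9.93, 10.22 and 9.90 in SB. In each genotype every VILI array lay above every SB array, and knockout SB arrays were the lowest of the 4 groups. The change was 1.52 in knockout, 2.87-fold (SE 0.18, adjusted p = 0.00355), and 0.63 in wild type, 1.55-fold (SE 0.18, adjusted p = 0.0894). Averaged over genotypes, Hbegf rose by 1.08, 2.11-fold (SE 0.13, adjusted p = 0.000711), and it passed in each of the 12 fits without 1 array. With only the 6 knockout arrays in the fit, the knockout rise kept its size and had an adjusted p of 0.0583.

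The Hbegf arrays of the genotypes overlapped after VILI and not in SB. In VILI lungs the knockout averaged 10.57 ± 0.32 and the wild type 10.65 ± 0.25 (SD, n = 3 each), a difference of -0.07 (95% confidence interval -0.48 to 0.33, adjusted p = 0.949). In SB lungs the knockout averaged 9.06 ± 0.20 and the wild type 10.02 ± 0.18 (SD, n = 3 each). That difference of -0.96 had an unadjusted p of 0.000253 and did not pass over all genes (SE 0.18, adjusted p = 0.116). It passed in 1 of the 12 fits without 1 array, that without knockout VILI replicate 3 (adjusted p = 0.0468). That array is in neither SB group, so the difference kept its size there. In the other 11 fits it did not pass, with an adjusted p of up to 0.435. These fits took the arrays as unpaired. With a replicate block over all 4 groups the limma adjusted p was 0.0599. Of all genes, 0.109% were called for knockout against wild type in SB and 0.1% in VILI, and of the members 0 passed in either. The VILI response of the knockout exceeded that of the wild type by 0.89 (SE 0.26, unadjusted p = 0.00554), and this interaction did not pass either (adjusted p = 0.9999). limma called 0% of all genes for the interaction, and of the members 0 passed.

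A second Hbegf probe set, 1418349_at, ordered the groups the same way. It read 8.53, 8.81 and 8.03 in knockout VILI and 8.41, 8.65 and 9.02 in wild type VILI. In SB it read 6.81, 6.50 and 6.20 in the knockout, against 7.82, 8.25 and 7.86 in the wild type. Tested among all kept probe sets, its change with VILI was 1.95 in knockout (adjusted p = 0.00537) and 0.71 in wild type (adjusted p = 0.140). Its knockout difference in SB was -1.47 (SE 0.24, adjusted p = 0.0576), larger than that of 1418350_at and likewise short of the threshold.

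Btc, the gene of betacellulin, a ligand of both EGFR and ERBB4, stayed near the array medians of 4.36 to 4.58. Its tested probe set read 4.91, 5.78 and 4.53 in knockout VILI, against 4.13, 4.12 and 3.33 in knockout SB. In wild type it read 4.48, 4.81 and 5.43 after VILI, against 4.04, 5.08 and 4.62 in SB. The groups were apart in the knockout and overlapped in the wild type. The change was 1.21 in knockout (SE 0.39, adjusted p = 0.0977), 0.33 in wild type (SE 0.39, adjusted p = 0.664; 0.059 without wild type SB replicate 1 and 0.58 without wild type SB replicate 2) and 0.77 averaged (adjusted p = 0.0705), and the average passed only without knockout VILI replicate 3 (0.91, adjusted p = 0.0495). The other Btc probe set stayed between 3.27 and 4.48 on all arrays and missed the filter.

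Tgfa, the gene of transforming growth factor alpha, did not pass in any comparison. Its tested probe set averaged 7.58 ± 0.08 in knockout VILI and 7.66 ± 0.19 in knockout SB, and 7.78 ± 0.15 in wild type VILI and 7.63 ± 0.15 in wild type SB (SD, n = 3 each). The averaged VILI change was 0.03, with a 95% confidence interval of -0.18 to 0.25.

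Ereg, the gene of epiregulin, lay at the low end of the scale on the SB arrays. Its probe set read 3.14, 3.85 and 3.14 in knockout VILI, against 3.00, 3.11 and 3.10 in knockout SB. It read 3.74, 3.31 and 5.69 in wild type VILI, against 3.13, 3.15 and 3.16 in wild type SB. Every VILI array lay above every SB array of its genotype, but only wild type VILI replicate 3 lay above its array median. Fitted without a filter, the averaged change was 0.70 (SE 0.35, adjusted p = 0.212).

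RefSeq promoter windows of build GRCm38.p6, 250 bases before to 50 bases after the gene's start, were matched for 7 of the 10 members, and not for Hbegf, Ereg and Erbb3. Those of the 2 receptors whose averaged VILI change passed, Egfr and Erbb2, and of the receptor inhibitor Lrig1 are shown 5′ to 3′. Capitals mark matches on either strand to GGGCGG, the Sp1 box, or TGACG, the core of the cAMP response element.
Egfr promoter, chr11:16751953-16752252, plus strand: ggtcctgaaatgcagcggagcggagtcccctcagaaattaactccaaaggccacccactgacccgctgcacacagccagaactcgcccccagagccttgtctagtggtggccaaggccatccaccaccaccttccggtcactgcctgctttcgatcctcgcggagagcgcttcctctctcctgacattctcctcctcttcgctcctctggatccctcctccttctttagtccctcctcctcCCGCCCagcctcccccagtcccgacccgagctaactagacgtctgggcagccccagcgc
Erbb2 promoter, chr11:98412234-98412533, plus strand: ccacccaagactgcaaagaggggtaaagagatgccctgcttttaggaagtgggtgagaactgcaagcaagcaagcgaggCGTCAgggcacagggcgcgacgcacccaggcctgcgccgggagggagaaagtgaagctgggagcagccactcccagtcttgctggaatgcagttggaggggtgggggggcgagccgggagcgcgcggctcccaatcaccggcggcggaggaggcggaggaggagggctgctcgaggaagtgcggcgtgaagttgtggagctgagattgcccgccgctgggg
Lrig1 promoter, chr6:94700096-94700395, minus strand: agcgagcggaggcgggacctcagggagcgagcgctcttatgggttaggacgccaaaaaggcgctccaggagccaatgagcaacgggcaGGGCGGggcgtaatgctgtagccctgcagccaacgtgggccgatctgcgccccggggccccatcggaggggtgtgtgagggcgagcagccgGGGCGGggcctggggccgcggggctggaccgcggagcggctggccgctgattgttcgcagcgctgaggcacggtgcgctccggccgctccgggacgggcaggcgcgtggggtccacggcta

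The Egfr window holds 1 Sp1 box, the Erbb2 window 1 response element core and the Lrig1 window 2 Sp1 boxes. Among 32851 windows of the same length, 35.7% hold an Sp1 box and 20.8% that core. All 3 windows are rich in G and C, at 62.3% for Egfr, 66.0% for Erbb2 and 73.0% for Lrig1, beside a median of 52.7% over all windows. The AP-1 site TGANTCA, present in 7.81% of windows, and the TATA box TATAAA, present in 13.6%, were searched on both strands and have no match in these 3 windows.

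Egfr encodes the receptor that binds these ligands, and its transcript rose when the genotypes were averaged. Probe set 1435888_at read 8.51, 9.08 and 8.84 in knockout VILI, against 8.18, 8.41 and 7.66 in knockout SB. It read 9.21, 8.95 and 9.37 in wild type VILI, against 8.62, 8.08 and 7.10 in wild type SB. VILI and SB arrays did not overlap within either genotype, and wild type SB replicate 3 was the lowest array. The averaged rise was 0.99, 1.99-fold (SE 0.23, adjusted p = 0.0166). The change was 0.73 in knockout (SE 0.33, adjusted p = 0.223) and 1.25 in wild type (SE 0.33, adjusted p = 0.0704), and the difference between these was not significant (-0.52, SE 0.47, adjusted p = 0.9999). Without wild type SB replicate 3 the wild type change was 0.83 (adjusted p = 0.181) and the averaged rise 0.78 (adjusted p = 0.0219). Without wild type SB replicate 1 the wild type change passed, at 1.59 (adjusted p = 0.0344). Without replicate 3 of both knockout groups the averaged call was lost (0.88, adjusted p = 0.0539).

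The 4 kept probe sets of Egfr did not move alike. Averaged over genotypes and tested among all kept probe sets, of which 13.8% were called, the change was 0.99 for 1435888_at (adjusted p = 0.0206), 0.77 for 1424932_at (adjusted p = 0.0520), 0.69 for 1451530_at (adjusted p = 0.258) and 0.06 for 1460420_a_at (adjusted p = 0.837). With the mean of the 4 as the gene's value, the averaged change was 0.63 and did not pass (adjusted p = 0.0660). The sources used here do not say which transcripts of the gene each probe set detects. The other 3 Egfr probe sets missed the filter.

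**Figure D2:**
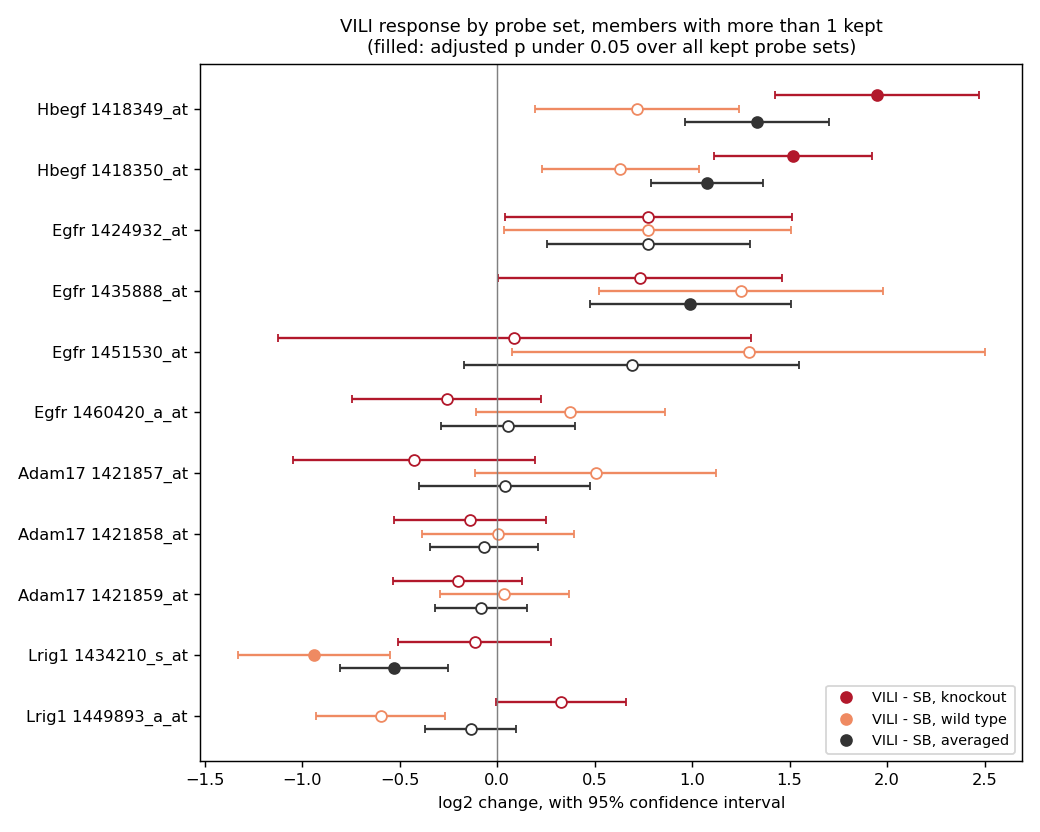
Log2 change with VILI (x axis, bars are 95% confidence intervals) for each kept probe set of the members with more than 1 (y axis), in knockout, in wild type and averaged. Filled points have an adjusted p under 0.05 over all kept probe sets. Both Hbegf probe sets lie right of 0 in all 3 comparisons, while the Egfr probe sets spread from 0.06 to 0.99 in the averaged one.

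Erbb2 encodes the receptor with no known ligand of its own, the preferred partner of the other family members, and it was lower after VILI. It read 5.61, 5.93 and 5.96 in knockout VILI, against 6.15, 5.96 and 6.57 in knockout SB. It read 5.86, 5.64 and 5.85 in wild type VILI, against 6.06, 6.80 and 6.54 in wild type SB. The groups were apart in the wild type and met at 5.96 in the knockout. The averaged change was -0.54 (SE 0.15, adjusted p = 0.0341), with -0.40 in knockout (adjusted p = 0.312) and -0.68 in wild type (adjusted p = 0.109). This call held in 3 of the 12 fits without 1 array, those without knockout VILI replicate 3, knockout SB replicate 2 or wild type SB replicate 1, and in the other 9 the change was -0.56 to -0.46 with an adjusted p of 0.0548 to 0.0845.

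Erbb3, which encodes a neuregulin receptor with an impaired kinase that signals through its partners, did not pass in any comparison. It averaged 9.66 ± 0.07 in knockout VILI and 9.64 ± 0.23 in knockout SB, and 9.68 ± 0.12 in wild type VILI and 9.94 ± 0.05 in wild type SB (SD, n = 3 each). All wild type SB arrays lay above all knockout SB and all wild type VILI arrays, by differences of -0.30 for knockout against wild type in SB (unadjusted p = 0.0314, adjusted p = 0.445) and -0.26 for VILI in wild type (adjusted p = 0.254). The second Erbb3 probe set lay between 2.63 and 2.67 on all arrays and missed the filter.

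**Figure D3:**
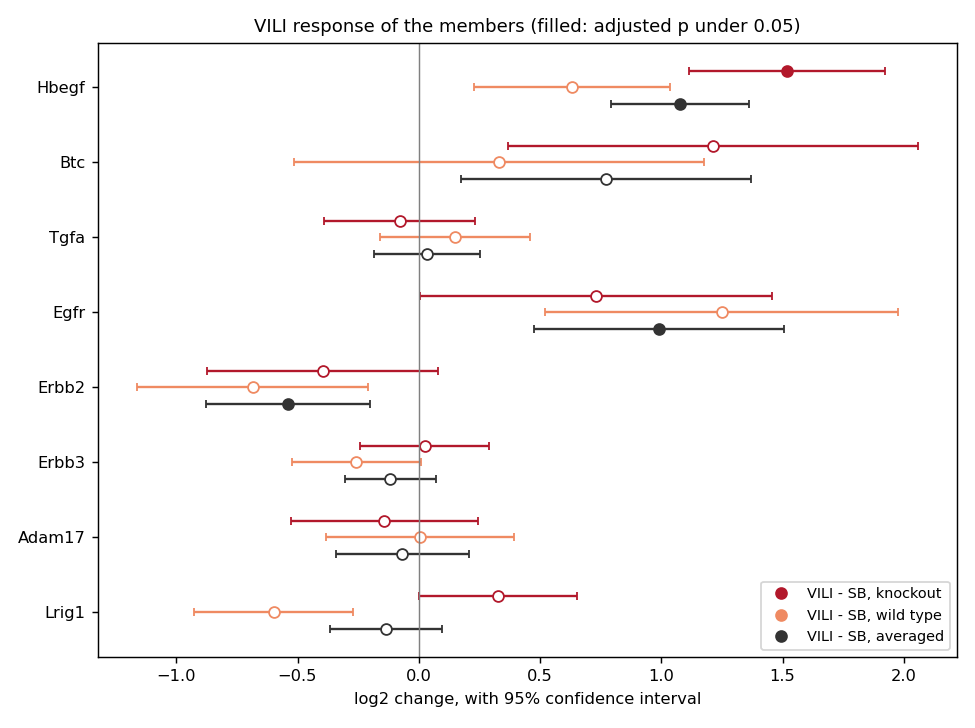
Log2 change with VILI (x axis, bars are 95% confidence intervals) for the 8 tested members (y axis), in knockout, in wild type and averaged over genotypes. Filled points have an adjusted p under 0.05, and they are Hbegf in knockout (1.52) and, in the average, Hbegf (1.08), Egfr (0.99) and Erbb2 (-0.54).

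Adam17, the metalloproteinase that releases Hbegf and several other ligands from the membrane, showed no call at any of its 3 kept probe sets. The gene's probe set averaged 9.28 ± 0.27 in knockout VILI and 9.43 ± 0.17 in knockout SB, and 9.49 ± 0.19 in wild type VILI and 9.48 ± 0.27 in wild type SB (SD, n = 3 each). Its averaged VILI change was -0.07 (95% confidence interval -0.34 to 0.21). Probe set 1421857_at changed with VILI by -0.43 in knockout and 0.50 in wild type, with arrays overlapping in both. In limma the difference between these was -0.93 (SE 0.40, unadjusted p = 0.0396) and did not pass (adjusted p = 0.999995). That difference was -0.15 at 1421858_at and -0.24 at 1421859_at. For knockout against wild type in SB the probe sets gave differences of -0.06 for 1421858_at, 0.14 for 1421859_at and 0.82 for 1421857_at (unadjusted p = 0.0143, adjusted p = 0.363 for the last). At 1421857_at and 1421859_at every knockout SB array lay above every wild type SB array, and at 1421858_at they overlapped. Shedding is a change of protein and is not measured by these arrays.

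Lrig1 encodes a membrane protein that binds EGF family receptors and promotes their degradation, and at 1 of its 2 kept probe sets the change with VILI had opposite signs in the 2 genotypes. Probe set 1449893_a_at read 8.08, 8.05 and 8.26 in knockout VILI, against 7.66, 7.75 and 8.00 in knockout SB. It read 7.75, 7.60 and 8.06 in wild type VILI, against 8.29, 8.53 and 8.39 in wild type SB. Every knockout VILI array lay above every knockout SB array, and every wild type VILI array lay below every wild type SB array. The change was 0.33 in knockout (SE 0.15, adjusted p = 0.226) and -0.60 in wild type (SE 0.15, adjusted p = 0.0563). The difference between these responses was 0.92 (SE 0.21, unadjusted p = 0.00101) and did not pass over all genes (adjusted p = 0.9999).

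The other kept Lrig1 probe set had the same sign in wild type and not in knockout. Probe set 1434210_s_at read 7.22, 7.12 and 7.12 in knockout VILI, against 6.97, 7.26 and 7.57 in knockout SB, a change of -0.12 (SE 0.18, adjusted p = 0.759). In wild type it read 6.95, 6.95 and 7.23 after VILI, against 7.74, 8.20 and 8.02 in SB, a change of -0.94 that passed among all kept probe sets (SE 0.18, adjusted p = 0.0327). Without the filter on low values that call was lost (adjusted p = 0.0669). Its averaged change of -0.53 passed (adjusted p = 0.0207), whereas that of 1449893_a_at was -0.14 (adjusted p = 0.420). In SB the knockout was lower at both probe sets with no overlap between arrays, by -0.60 at 1449893_a_at (SE 0.15, adjusted p = 0.258) and -0.72 at 1434210_s_at (SE 0.18, adjusted p = 0.253). With the mean of both as the gene's value, the wild type change was -0.77 and passed (adjusted p = 0.0302). The wild type change of 1449893_a_at passed in 1 of the 12 fits without 1 array, that without knockout SB replicate 3 (adjusted p = 0.0418). That array is outside the wild type comparison, so the change stayed at -0.60 there. In the other 11 fits it did not pass, with an adjusted p of up to 0.232.

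**Figure D4:**
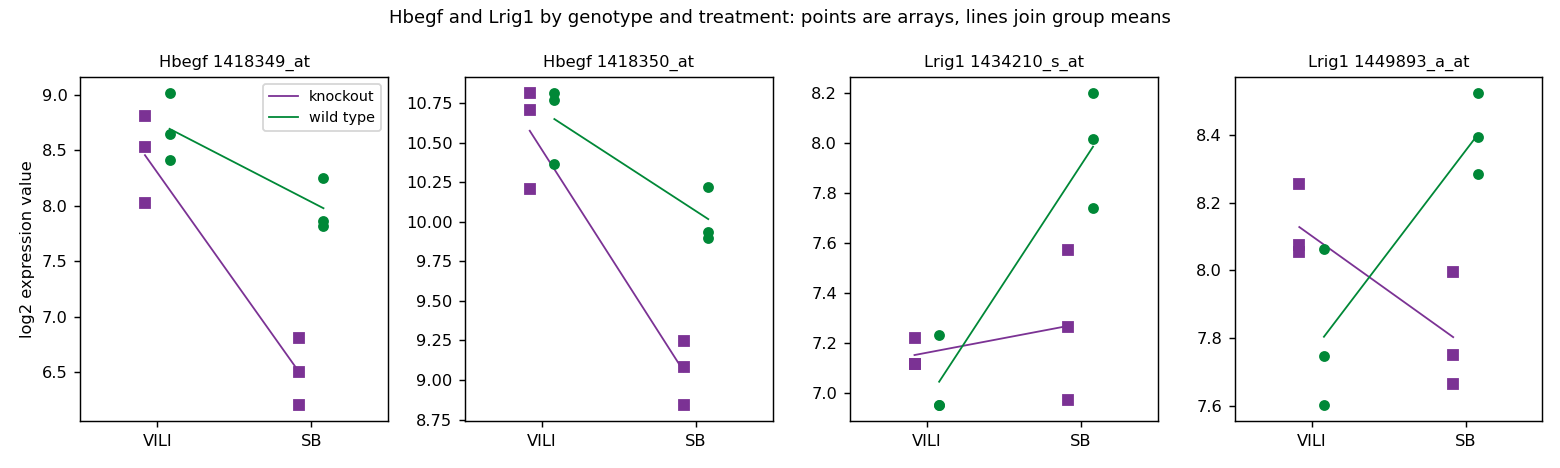
Log2 expression value (y axis) of both kept probe sets of Hbegf and of Lrig1 after VILI and in SB (x axis), with 1 point per array and lines joining the group means of each genotype. The SB arrays of knockout and wild type do not overlap at any of the 4 probe sets, and the VILI means lie closer together.

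Beyond the members, 53 other genes of the pathway were listed by role, with earlier results of these data known, and 39 were tested. The shares below describe these lists and are no test of the pathway. Averaged over genotypes, 12 rose and 1 fell, which is 33.3% of those tested beside 17.8% of all genes, with a median change of 0.20 beside -0.03. In knockout 6 rose and 0 fell, 15.4% beside 4.47% of all genes, and in wild type 2 rose and 0 fell, 5.13% beside 2.64%. Without replicate 3 of both knockout groups the knockout count was 1 rose and 0 fell, beside 1% of all genes. Without replicate 2 of both SB groups the wild type count was 5 rose and 0 fell, beside 2% of all genes. The single other receptor, Erbb4, and the 6 other ligands, Egf, Epgn, Nrg1, Nrg2, Nrg3 and Nrg4, missed the filter, as did Adam12 and Etv4.

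Genes known to be induced by EGF receptor signalling, and by many other stimuli, held most of these calls: of 9 tested, 7 rose and 0 fell in the average, 77.8% beside 17.8% of all genes. As the list was chosen with earlier results of these data known, this share is a description and no test. The transcription factor genes Fosl1 (3.20, SE 0.54, adjusted p = 0.00346), Egr1 (2.62, SE 0.45, adjusted p = 0.00379) and Myc (2.46, SE 0.26, adjusted p = 0.000412) had the 3 highest changes. All 6 SB arrays of Fosl1, at 2.52 to 4.35, lay below their array medians, so the size of its change is taken against values at the low end of the scale. Phlda1, a pleckstrin homology domain gene, rose by 1.48 (adjusted p = 0.000527). Ier3 (0.78, adjusted p = 0.0478), the ERK phosphatase gene Dusp5 (0.70, adjusted p = 0.0358) and Klf6 (0.64, adjusted p = 0.0180) rose less. Replicate 2 of both SB groups stood apart on some of these genes: Egr1 read 10.39 in knockout SB and 11.04 in wild type SB there, against 8.46 to 8.99 on the other SB arrays, and Fosl1 read 4.06 and 4.35, against 2.52 to 2.55. Without those 2 arrays 6 of the 9 rose in the average: Fos, named here after its values were seen, came to pass (1.81, adjusted p = 0.00535), Ier3 (0.55, adjusted p = 0.151) and Dusp5 (0.78, adjusted p = 0.0590) no longer did, and Egr1 rose by 3.29 and Fosl1 by 3.76. With all 12 arrays Fos changed by 1.17 (adjusted p = 0.0914). Myc and Phlda1 passed in each genotype alone, and Fosl1 and Egr1 in the knockout. The interaction passed for 0 of the 39 genes, with 3 at an unadjusted p under 0.05. The share of all genes at that cutoff was not counted, so the 3 were not set against it. Named here after their values were seen, they are Errfi1, an inhibitor that binds the receptor's kinase domain (-0.55), the tetraspanin gene Cd9 (-0.51) and Socs5 (0.45).

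Among 13 other inhibitors of the pathway, 3 rose and 0 fell in the average, which is 23.1% and near the 17.8% called over all genes. Spry4, a Sprouty gene whose product restrains the Ras-ERK cascade, read 9.97, 10.66 and 10.64 in knockout VILI, against 8.05, 9.83 and 7.97 in knockout SB. In wild type it read 10.41, 10.36 and 10.54 after VILI, against 9.31, 9.93 and 9.07 in SB. Its arrays were apart within each genotype, and it rose by 1.40 in the average (SE 0.30, adjusted p = 0.0105). The related Spred2 rose by 0.47 (adjusted p = 0.0252) and Socs4, of the family that promotes degradation of signalling proteins, by 0.35 (adjusted p = 0.0252).

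Of 9 tested shedding enzymes and factors, Adam8, a leukocyte metalloproteinase, rose by 1.32 (SE 0.21, adjusted p = 0.00265), and the other 8 did not pass. That is 11.1% of these genes, below the 17.8% called over all genes. Of 8 tested signal transducers, Ptpn11, which encodes the phosphatase SHP2, rose by 0.31 (adjusted p = 0.0152) and Plcg1, which encodes phospholipase C gamma 1, fell by 0.32 (adjusted p = 0.0160), so that 25% of them were called.

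**Figure D5:**
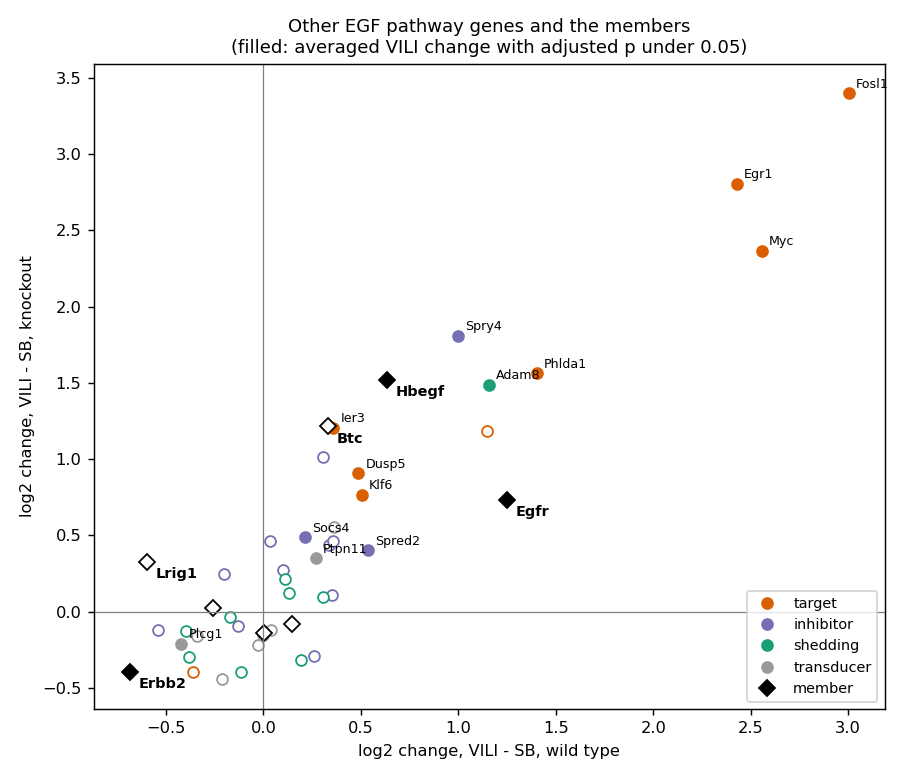
Log2 change with VILI in wild type (x axis) and in knockout (y axis) for the 39 other pathway genes, coloured by role, and for the 8 members as diamonds. Filled symbols have an adjusted p under 0.05 in the average of both genotypes. The induced targets Fosl1, Egr1 and Myc lie highest in both genotypes, and Lrig1 is above 0 in knockout and below 0 in wild type.

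The genes most like each called member across the 12 arrays were found by Pearson correlation over all genes tested, which describes arrays that share their treatment and genotype groups. Hbegf was most like Mrpl33 (r = 0.965), Dnajb5 (r = 0.955) and Ier3ip1 (r = 0.95), with r of 0.578, 0.780 and 0.601 after the group means were removed. Egfr was most like Supt7l (r = 0.935), Sec24a (r = 0.922) and Tmem87b (r = 0.914), with 0.827, 0.848 and 0.789 after the group means were removed. Erbb2 was most like Slc1a3 (r = 0.946), Scrn2 (r = 0.934) and Rtkn (r = 0.928), with 0.858, 0.904 and 0.832. None of these 9 genes is a member.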

How the data were processed

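RNA of 12 lungs was measured on single-colour Affymetrix arrays. The deposited values are expression per probe set, normalized by the authors and taken as log2 from their range, since the scale is not stated. MAS5 and GCRMA appear in the submitters' processing notes with no role, order or version, and the sources used here give no genome build. They ran from 0.668 to 15.9 and were used as deposited, and every fold rests on that reading of the scale. The number of arrays limits the precision.

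Of 45101 probe sets, 64 controls were left out and 23082 passed the filter. The 12 arrays entered 1 model of the 4 group means in limma 3.58.1 in R 4.3.3 (8 residual and 3.36 prior degrees of freedom, mean-variance trend), with 6 two-sided contrasts adjusted by Benjamini-Hochberg over 10996 genes. The code was tested on simulated data. Other kept probe sets were tested in a fit of all kept probe sets. Named genes were all members, the pathway genes past the threshold in a VILI comparison (the rule also allowed the interaction, which none passed), and the 3 most correlated genes of each called member. The members and lists were chosen with earlier results of these data known. Other pathway genes named are marked in the text. Groups came from the sample titles. Same-numbered knockout and wild type SB arrays correlated at 0.23, 0.53 and 0.32 after group means were removed. By these values alone, and by no label, the numbers may pair the mice in that comparison. The titles gave the numbers. The main tests, those in SB among them, took the arrays as unpaired, and no paired test of the SB groups alone was run. Only the replicate block, an alternative, used the numbers, and it blocked all 4 groups. Alternatives were the filter, scaling, trend, arrays in the fit, probe set rule, a replicate block and leaving out arrays.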

Additional observations from a re-analysis of the deposited data

Results flagged for a closer look

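Lrig1 was singled out because at probe set 1449893_a_at every knockout VILI array lay above every knockout SB array and every wild type VILI array lay below every wild type SB array. In the fit of all kept probe sets, the VILI response of the knockout minus that of the wild type was 0.92 (SE 0.21, unadjusted p = 0.00113, adjusted p = 0.999995), so the difference did not pass the test. At the other kept Lrig1 probe set it was 0.82 (SE 0.25, unadjusted p = 0.00716, adjusted p = 0.999995).

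Ereg, outside the main test because of its low values, was singled out because its highest VILI array, wild type VILI replicate 3 at 5.69, lay more than 1 log2 unit above the highest SB array at 3.16. The next highest VILI array was knockout VILI replicate 2 at 3.85. The difference rests on 1 array, and the averaged change without a filter was 0.70 (adjusted p = 0.212).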

How the results depend on the processing

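Over 48 combinations of a member and a comparison and 23 alternatives, 1022 of 1088 refitted values kept their direction and their side of the threshold, 14 lost a call, 11 gained one and 41 changed sign, and in 0 of those 41 did either value pass. Part of that share was fixed in advance. Leaving out an array of a group outside a comparison of 2 groups cannot alter its log2 change, and the trend and block settings did not either. Many values also lay far from the threshold. Hbegf passed for VILI in knockout in 22 of 23 alternatives and for the average in 22 of 22, Egfr for the average in 20 of 22 and Erbb2 in 11 of 22; without a filter Erbb2 had an adjusted p of 0.0528. The count of members called for VILI in knockout was 0 with only the arrays compared, against 1. For VILI in wild type it was 1 with the mean of the probe sets (Lrig1), 1 with probe sets tested separately and the one of lowest p taken for each gene (Lrig1) and 2 with the replicate block (Hbegf at an adjusted p of 0.0475 and Lrig1 at 0.0398), against 0. Leaving out arrays gave 0 to 2 for VILI in wild type, with 1 each without knockout SB replicate 3 (Lrig1) and without wild type SB replicate 1 (Egfr). It gave 1 to 4 for the average, 4 without knockout VILI replicate 3, and 0 to 1 for knockout against wild type in SB, 1 without knockout VILI replicate 3 (Hbegf). Without replicate 3 of both knockout groups, the count was 2 in wild type (Hbegf and Lrig1) and 1 in the average (Hbegf). Over all genes, 5.94% were then called in wild type, against 2.64% with all arrays, and 14.8% in the average, against 17.8%. Leaving out these arrays, like leaving out replicate 2 of both SB groups, was chosen after seeing the data.

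Sign changes of values that did not pass were as follows. With centred arrays and with quantile normalization, Erbb3 for VILI in knockout was -0.024 and -0.026, Adam17 for VILI in wild type -0.025 and -0.034, and Tgfa in the average -0.0039 and -0.012. With centred arrays alone, Erbb2 for knockout against wild type in VILI was -0.0199 and Tgfa for knockout against wild type in SB -0.014. Adam17 in SB was 0.30 with the mean of its probe sets and 0.82 with separate probe sets. Leaving out arrays gave ranges that cross 0: for VILI in knockout, Tgfa -0.18 to 0.0032 and Erbb3 -0.10 to 0.15; for VILI in wild type, Adam17 -0.13 to 0.15; for the average, Tgfa -0.018 to 0.076 and Adam17 -0.14 to 0.0031; for the interaction, Erbb2 -0.0094 to 0.49. For knockout against wild type in VILI they were Hbegf -0.22 to 0.11, Btc -0.19 to 0.44, Erbb2 -0.026 to 0.16 and Erbb3 -0.082 to 0.032, and in SB Tgfa -0.048 to 0.14, Egfr -0.27 to 0.49, Erbb2 -0.44 to 0.057 and Adam17 -0.19 to 0.16. The cause of these changes was not tested.

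Over all genes, calls for VILI in knockout numbered 491, against 306 without a filter and 11 with only the 6 knockout arrays. For VILI in wild type they numbered 290, against 112 without a filter, 475 with only the 6 wild type arrays and 442 with the replicate block. Leaving out 1 array gave 69 (without knockout VILI replicate 2) to 713 in knockout, 19 (without wild type VILI replicate 2) to 487 in wild type and 1128 to 2084, against 1958, for the average. Same-numbered arrays of different groups correlated at -0.16 to 0.53 after group means were removed, and 8 of 12 arrays correlated best with their own number, with 10 of 18 such pairs over 0.1 against 7 of 36 differently numbered pairs. Every pair was over 0.1 for knockout against wild type in SB alone, where the replicate block changed no call of a member. With that block the limma adjusted p in SB was 0.0599 for Hbegf, 0.186 for Lrig1 and 0.355 for Erbb3. Any pairing by number, there or elsewhere, is a hint from the data and not from the design. Low signal limits Ereg, Btc and the receptor and ligands that missed the filter.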
